A study of Bos taurus with 90 samples.

Results

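The genes described here were the somatic genes shared by the mural granulosa cells (MGCs) and the cumulus cells (CCs) of bovine antral follicles, that is, 200 of the 27270 genes counted, transcribed at similar mean levels in both cell types and almost absent from the oocyte. They were chosen on CPM, the count of a gene divided by the total of its library and scaled to 1000000, averaged over 26 follicles. CPM does not correct for transcript length, so a level can be followed across libraries but the order of members also reflects their lengths. A gene qualified when its mean oocyte level was under 0.5 CPM and its mean MGC and CC levels lay within 2-fold of each other, and the 200 with the highest value of the lower of the 2 somatic means were taken. Both limits were met by 2420 genes. Genes carry Ensembl identifiers in the counts, and nothing used here pairs these with symbols. Members are therefore called by their rank in this choice, from 1 to 200, and no function, position or sequence of a member is given.

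MGCs line the wall of the antral follicle, and CCs surround the oocyte within the antrum. Both descend from the same granulosa cells of the earlier follicle and part when the antrum forms, so a common granulosa programme persists beside the traits of each compartment. MGCs are known for steroid production under gonadotropin control, and CCs for their metabolic coupling to the oocyte through projections that cross the zona pellucida. The oocyte has a transcriptome of its own, which it stores for maturation and early development. Genes of the shared class allow the somatic compartments to be compared with little contribution of the germ cell.

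The series holds 90 RNA-seq libraries of *Bos taurus*, 1 of MGCs, 1 of CCs and 1 of the single oocyte from each of 30 untreated follicles, with 10 small (3.1 to 3.8 mm), 10 medium (6.2 to 7.1 mm) and 10 large (9.6 to 11.6 mm) follicles. The ovaries came from a slaughterhouse, the age of the cows was not given in the sources used here, and several follicles may have come from one animal, so p-values measure the spread between follicles and not between cows. MGCs were sequenced as bulk RNA, whereas the CC pools and the oocytes were amplified by SMART-seq2, a low-input method for full-length cDNA, and cell type and library method cannot be told apart in a level difference between MGCs and CCs. The 26 follicles used were 8 small, 8 medium and 10 large. Only 10 of the 26 were among those the study classed as healthy on MGC expression. Follicles it took to be entering early atresia were left out of its main developmental analyses. The stage comparisons here are therefore made over follicles of mixed health, with the 10 healthy ones as an alternative. Libraries are named as in their labels, with G, C or O for MGC, CC or oocyte, then S, M or L for the stage, then the follicle number.

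MGC libraries held 26739954 to 39266980 counts, CC libraries 8760201 to 40180192 and oocyte libraries 8442938 to 53173320. The labelled cell types could not be checked by marker genes, since these need symbols. The CC pools CS50501 and CS71701, both of small follicles, stood apart as the 2 least similar to the others, the second less clearly. Their median Spearman correlation with the other CC pools was 0.777 and 0.841, against 0.866 or more in the other 24, and CS50501 had the fewest genes with a count of any CC pool used (11872). Most results on CCs that these pools could move are given with and without them.

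The median level over the members was 20.7 CPM in MGCs, 20.8 CPM in CCs and 0.171 CPM in oocytes, as the choice requires. The top-ranked member had a mean of 582 CPM in MGCs and 321 CPM in CCs, and the second had 391 and 287 CPM. The first 10 members held 29.99% of the summed MGC level of all 200 and 26.5% of the summed CC level, and the first 30 held 51.5% and 50.2%. Among these 30, mean MGC levels ranged from 63.4 CPM (rank 29) to 582 CPM, and mean CC levels from 60.0 CPM (rank 30) to 321 CPM. At the other end, the lower of the somatic means was between 6.83 and 6.40 CPM in the last 5 members and between 6.24 and 6.10 CPM in the 5 genes just outside.

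A level of 6.40 CPM in both somatic cell types was reached by 8494 genes, of which 5231 had somatic means within 2-fold of each other. Under the oocyte limit there were 384, of which 200 were the members, 122 had an MGC mean more than 2-fold above the CC mean and 62 the opposite. The oocyte limit therefore removed most genes with equal somatic levels. The member closest to it had a mean of 0.49997 CPM (rank 180), and the nearest gene beyond it 0.50011 CPM. The CC over MGC ratio of the members ran from 0.502 to 1.99 with a median of 1.05, and the nearest genes beyond the 2-fold limit had ratios of 0.497 and 2.02. The CC mean was the higher one in 106 members and the lower one in 94, and 127 members had means within 1.5-fold.

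**Figure D1:**
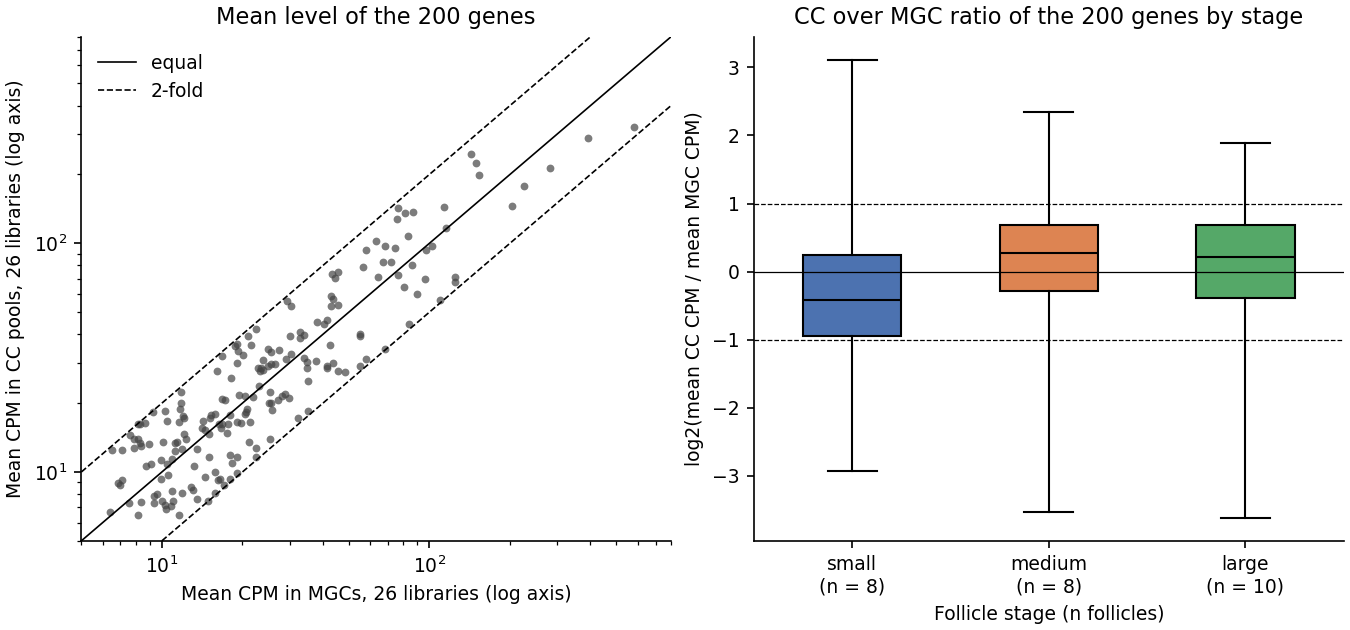
Left, mean CPM in MGCs (x) against mean CPM in CC pools (y) of the 200 genes over 26 libraries of each, both axes logarithmic, with lines of equality and of a 2-fold difference, which the choice of genes sets. Right, log2 of the CC over MGC ratio of stage means for the same genes, where boxes give quartiles and median and whiskers the full range. The median ratio is 0.753 for small, 1.205 for medium and 1.16 for large follicles, and single genes leave the 2-fold band (dashed) at every stage.

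Detection in the somatic libraries was high, which the choice of genes by their somatic means largely sets. A level above 1 CPM was reached in all 26 MGC libraries by 175 members, in all 26 CC libraries by 127 and in all 52 by 118. Without CS50501 and CS71701 it was reached in the other 24 CC libraries by 167. The MGC libraries each had 191 to 200 members above 1 CPM and the CC pools 139 to 199, with the lowest 2 in CS50501 (139) and CS71701 (176). In bulk samples such as these, fewer cells of a type and less RNA per cell cannot be told apart.

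The oocytes did hold scattered counts of the members. A count was found in a median of 7 of 26 oocytes per member, 7 members had none in any oocyte, and 31 had one in at least 13 oocytes. In 137 members at least 1 oocyte exceeded 1 CPM, and in 7 members at least 1 exceeded 5 CPM. The 5 members with the highest oocyte means were ranks 180, 83, 120, 157 and 5, between 0.487 and 0.49997 CPM, and their highest single oocytes reached 2.84 to 5.77 CPM. Over all members an oocyte library summed to between 6.49 and 69.0 CPM.

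The summed level of the 200 genes was similar between the somatic cell types, which a choice of genes with means within 2-fold largely sets. In MGCs it ranged from 6333 to 10287 CPM in small follicles (median 7891), from 6040 to 7991 CPM in medium follicles (median 7128) and from 6939 to 9978 CPM in large follicles (median 8207). In CCs it ranged from 2470 to 9031 CPM in small (median 7735), from 5354 to 13086 CPM in medium (median 8127) and from 5783 to 11093 CPM in large follicles (median 8437). The 3 ranges overlapped in both cell types, and the lowest 2 sums of all somatic libraries were those of CS50501 (2470 CPM) and CS71701 (4103 CPM). Without these, small CC pools ranged from 5374 to 9031 CPM (median 7806). Among small follicles GS50501, GS50502 and GS50506 had the highest MGC sums, 9332 to 10287 CPM, whereas the CC pools of the same follicles had 2470 to 7714 CPM.

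**Figure D2:**
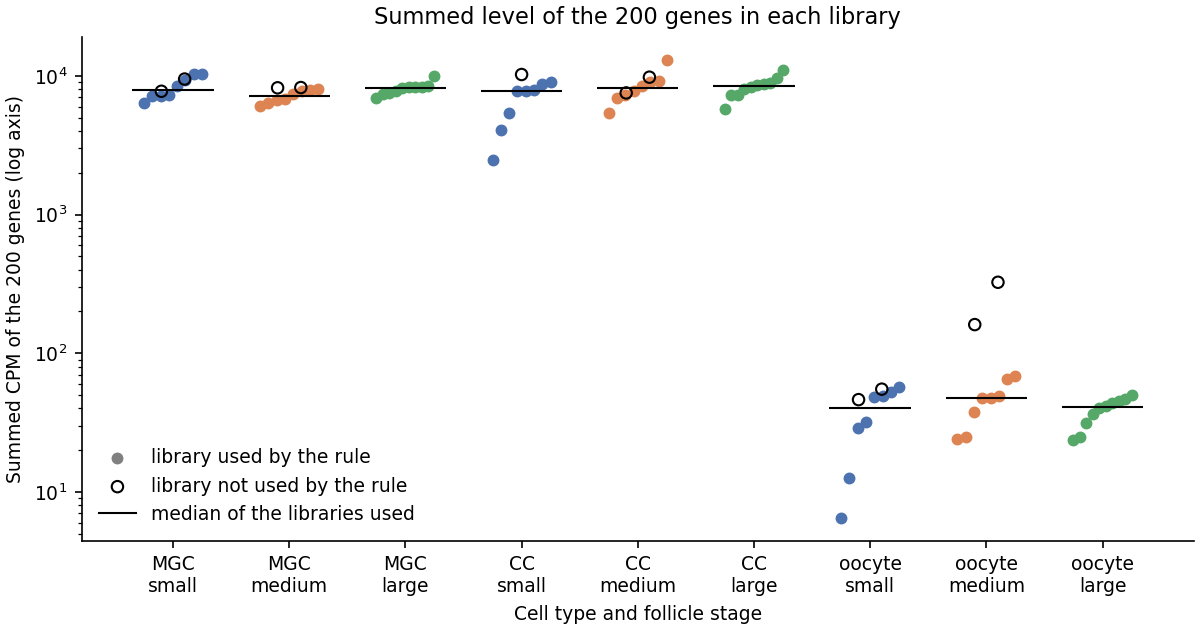
Summed CPM of the 200 genes in each library (y, logarithmic) by cell type and follicle stage (x), with filled points for the 26 follicles used by the choice, open points for the 4 not used and lines at the medians of the former. CS70701, which is not a whole library, is not drawn. The somatic libraries drawn lie between 2470 and 13086 CPM and the oocytes used between 6.49 and 69.0 CPM, and the choice of genes sets the low level of the latter.

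The 4 follicles left out of the choice gave an independent look at it. They were the follicles of OS70702, OM71804 and OM71001, which the study removed for quality, and that of OS70701, whose CC column holds counts for only 1066 genes. That column entered no value here except the alternative fit with all 30 follicles and the alternative choices of genes over 27 and over all 30 follicles. Their MGC sums were 7743 to 9485 CPM and the 3 whole CC pools had 7532 to 10228 CPM, within the ranges over all follicles used. Their oocytes were under 0.5 CPM in 179, 195, 187 and 164 of the 200 members (in the order above), or 89.5%, 97.5%, 93.5% and 82.0%. Among all 8494 genes at the members' somatic level the same held for 8.16%, 48.2%, 31.6% and 6.39%, so low oocyte levels of the members recurred in oocytes that had not chosen them.

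The summed oocyte level was 55.05 CPM in OS70702 and 46.3 CPM in OS70701, but 161 CPM in OM71804 and 325 CPM in OM71001, above every oocyte used. These high sums rested on few members. In OM71804, ranks 105, 138 and 158 had 55.4, 54.4 and 45.2 CPM and made up most of the sum, although none exceeded 2.01 CPM in any oocyte used. In OM71001, ranks 165 and 3 had 79.9 and 78.5 CPM. The MGC and CC levels of these follicles lay within 2-fold of each other, with 1 CPM added to each, in 138, 113 and 116 members (69.0%, 56.5% and 58.0% in the same order, without the last), against 67.2%, 55.6% and 53.5% of all genes at that level. Equal somatic levels in a single follicle were thus about as frequent among the members as among all genes of their abundance, which include genes with means outside the 2-fold limit.

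Single follicles departed from the equality of the means. Of the 5200 pairs of a member and a follicle used, 54.9% were within 2-fold, against 66.5% over all genes at that level with means within 2-fold. Without the follicles of CS50501 and CS71701 the shares were 57.5% and 69.3%. Per follicle the number of members within 2-fold ran from 36 to 146, with a median of 111.5. The lowest 2 were the follicle of CS50501, where 159 members were more than 2-fold higher in MGCs and 5 in CCs, and that of CS71701, where the numbers were 131 and 11. The follicle of CM71002 had the most. Per member, the number of follicles within 2-fold ran from 4 to 23 of 26, with the highest in ranks 26 and 46, and ranks 15 and 23 among the first 30 reached only 5.

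The relation between the compartments also varied with stage. Stage means were within 2-fold for 144 members at the small, 171 at the medium and 162 at the large stage. In small follicles 66 members were higher in CCs than in MGCs, whereas in medium follicles 125 and in large follicles 118 were. The choice used these same levels and holds the means over all follicles within 2-fold. A lower ratio in small follicles therefore tends to go with higher ratios at the other stages, so these counts are no independent result. The 2 CC pools that stood apart are part of the small group. Without these, and the MGCs of the same follicles, 92 members were higher in CCs in small follicles, and the median CC over MGC ratio there was 0.931 in place of 0.753.

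Whether the members changed as the follicle grew was tested with edgeR's quasi-likelihood test, fitted over all genes of each cell type, and a gene was called a differentially expressed gene (DEG) at a fold change above 2 and a Benjamini-Hochberg adjusted p under 0.05. Between small and medium follicles, 1 member was a DEG in MGCs, against 0.283% of all 14838 genes tested, and 17 had an unadjusted p under 0.05 with a fold above 2, against 5.57% of all genes. Between medium and large follicles edgeR called no gene in MGCs (0% of all genes), and 7 members had an unadjusted p under 0.05 with a fold above 2, against 4.43% of all genes. With DESeq2, 2 members were called in that step, against 0.425% of all genes, and among the 10 follicles the study classed as healthy edgeR called 22, against 7.96% of all genes. From small to large follicles, 14 members were DEGs in MGCs, or 7.00% of the members against 3.13% of all genes. Of these, 6 were higher in large follicles (1.01% of all genes) and 8 lower (2.12%), and 32 members had an unadjusted p under 0.05 with a fold above 2 (8.7% of all genes). The median log2 fold change of the members was -0.09, against -0.02 over all genes.

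The largest fall among the MGC DEGs was that of rank 124 (ENSBTAG00000037786). Its MGC levels ran from 7.01 through a median of 20.1 to 100.1 CPM in small follicles, from 2.79 through 4.73 to 11.3 CPM in medium follicles and from 1.53 through 3.27 to 12.3 CPM in large follicles. Small follicles were the highest, and GL71801 was the only large library within their range. The log2 fold change from small to large follicles was -2.89 ± 0.47 (SE, adjusted p = 0.000763 by edgeR), and from small to medium -2.53 ± 0.51 (adjusted p = 0.0211). In the CCs of the same follicles its medians were 20.9, 14.5 and 10.9 CPM, with overlapping ranges and a log2 change of -0.78 ± 0.40 from small to large (adjusted p = 0.243). With the first 3 digits of the follicle number as a covariate, the MGC change was -2.18 and no longer passed (adjusted p = 0.0990), and without the follicle of CS50501 the step from small to medium did not pass (adjusted p = 0.0640).

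The largest rise among the MGC DEGs was that of rank 68 (ENSBTAG00000014707). Its MGC levels ran from 3.52 through a median of 8.06 to 26.7 CPM in small, from 4.71 through 14.5 to 51.7 CPM in medium and from 4.52 through 36.9 to 130 CPM in large follicles. The median was higher at each step, while the ranges overlapped. The log2 fold change from small to large was 2.10 ± 0.55 (adjusted p = 0.0258 by edgeR). With the first 3 digits of the follicle number as a covariate the log2 change was 0.29 (adjusted p = 0.802), and without the follicle of CS50501 it did not pass (adjusted p = 0.0501). In CCs the same gene had medians of 1.96, 4.31 and 14.8 CPM, and its medium mean rested on the single pool CM70502 with 540 CPM, beside which the next medium pool had 32.1 CPM.

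Rank 137 was the only member whose large and small MGC libraries did not overlap, against 0.399% of the 15056 genes kept. Its MGC levels were 15.3 to 26.6 CPM in small follicles (median 18.8), 6.86 to 13.1 CPM in medium (median 10.4) and 1.01 to 10.2 CPM in large follicles (median 6.48). Medians were lower at each later stage, with a log2 fold change of -1.74 ± 0.26 from small to large (adjusted p = 0.000274). This call held under every alternative run for MGCs, with log2 changes between -1.73 and -2.63. In CCs its medians were 21.5, 24.0 and 16.5 CPM, and the log2 change was -0.16 (adjusted p = 0.771).

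The other members that fell in MGCs from small to large follicles were ranks 91, 70, 190, 200, 151 and 109, with log2 fold changes from -2.82 to -1.04 and adjusted p from 0.00463 to 0.0390. The other members that rose were ranks 167, 25, 104, 122 and 71, with log2 fold changes from 1.92 to 1.02 and adjusted p from 0.00368 to 0.0480. With the first 3 digits of the follicle number as a covariate 24 members were called (8.05% of all genes), but only 6 of the 14, and ranks 68, 71, 91, 104, 109, 124, 167 and 200 did not pass. Rank 200 then changed by -0.29 (adjusted p = 0.772) in place of -1.52. Without the follicle of CS50501 rank 91 did not pass either (adjusted p = 0.0806), and without those of both CC pools that stood apart ranks 25, 71, 91, 151 and 167 did not (adjusted p from 0.0571 to 0.128). Rank 25 had MGC medians of 63.4, 108 and 146 CPM in small, medium and large follicles. Its CC medians were 28.6, 93.0 and 72.2 CPM, and the CC log2 change was 1.32 (adjusted p = 0.0643). In the CCs of the same follicles, the 8 members that fell in MGCs had log2 changes from small to large between -0.78 and 1.01, none of which passed the test.

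In CCs edgeR called no gene between small and medium or between medium and large follicles (0% in each), where 21 and 11 members had an unadjusted p under 0.05 with a fold above 2, against 9.1% and 4.48% of all 15033 genes. DESeq2 called 2 and 1 members in these steps, against 0.253% and 0.120% of all genes. Without the follicles of CS50501 and CS71701, 11 and 12 members had an unadjusted p under 0.05 with a fold above 2 by edgeR. The shares of all genes were then 5.88% and 5.37%. With all 26 follicles, 9 members were DEGs in CCs from small to large, or 4.50% of the members against 3.34% of all genes. Of these, 6 were higher in large follicles (1.24% of all genes) and 3 lower (2.1%). An unadjusted p under 0.05 with a fold above 2 was found in 37 members (15.7% of all genes), of which 31 were higher in large follicles (9.29%). None of these 9 calls held without the follicle of CS50501 or of CS71701. No other small follicle was left out alone, so an effect of these pools and of fewer small follicles cannot be told apart. Without the follicle of either, or of both, edgeR called no gene from small to large. The adjusted p of the 9 members by edgeR ranged from 0.0931 to 0.133 without the first (CS50501). Without the second (CS71701) it ranged from 0.0819 to 0.264, and without both from 0.216 to 0.550. Without the first, 28 members had an unadjusted p under 0.05 with a fold above 2, and without the second 29, against 11.4% and 12.2% of all genes. Without both, 19 members had an unadjusted p under 0.05 with a fold above 2, 17 of them higher in large follicles, against 7.33% of all genes. No member was called in both cell types, and of the 14828 genes tested in both 0.128% were, so the absence is no result about the members.

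The largest rise among the CC DEGs was that of rank 16 (ENSBTAG00000002069). Its CC levels ran from 1.11 through a median of 11.3 to 26.8 CPM in small, from 9.37 through 52.01 to 438 CPM in medium and from 13.6 through 38.1 to 500 CPM in large follicles. No small pool exceeded 26.8 CPM, but the ranges overlapped, and the highest pools were CM70502 and CL72101. The log2 fold change from small to large was 3.32 ± 0.72 (adjusted p = 0.0314 by edgeR), and without the follicles of CS50501 and CS71701 it was 2.95 (adjusted p = 0.219). In MGCs its medians were 57.8, 76.1 and 94.5 CPM, with a log2 change of 0.90 ± 0.61 (adjusted p = 0.439).

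The largest fall among the CC DEGs was that of rank 22 (ENSBTAG00000054808). Its CC levels ran from 1.08 through a median of 20.3 to 479 CPM in small, from 2.52 through 51.99 to 578 CPM in medium and from 1.41 through 10.6 to 48.2 CPM in large follicles. The highest small pool was CS71701 itself, and the highest medium pool was CM71704. The log2 fold change from small to large was -3.30 ± 0.95 (adjusted p = 0.0490), without that follicle it was -1.80 (adjusted p = 0.264), and among the 10 follicles the study classed as healthy it was 1.63, the opposite direction (adjusted p = 0.662). In MGCs its medians were 75.3, 73.0 and 73.6 CPM.

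The other CC calls were rises of ranks 75, 188, 67, 88 and 54, with log2 fold changes from 3.26 to 1.41, and falls of rank 55 (-1.32) and of 1 of the last 5 members (-1.55), with adjusted p from 0.0314 to 0.0475. Rank 67 had CC levels from 0.433 through a median of 6.41 to 19.7 CPM in small, from 0.231 through 11.3 to 57.1 CPM in medium and from 6.56 through 29.9 to 116 CPM in large follicles. Its MGC medians were 52.7, 47.3 and 49.6 CPM, so that the compartments were far apart in small follicles and closer in large ones. Rank 88 had CC medians of 14.98, 40.3 and 62.6 CPM and MGC medians of 17.3, 20.2 and 26.3 CPM.

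**Figure D3:**
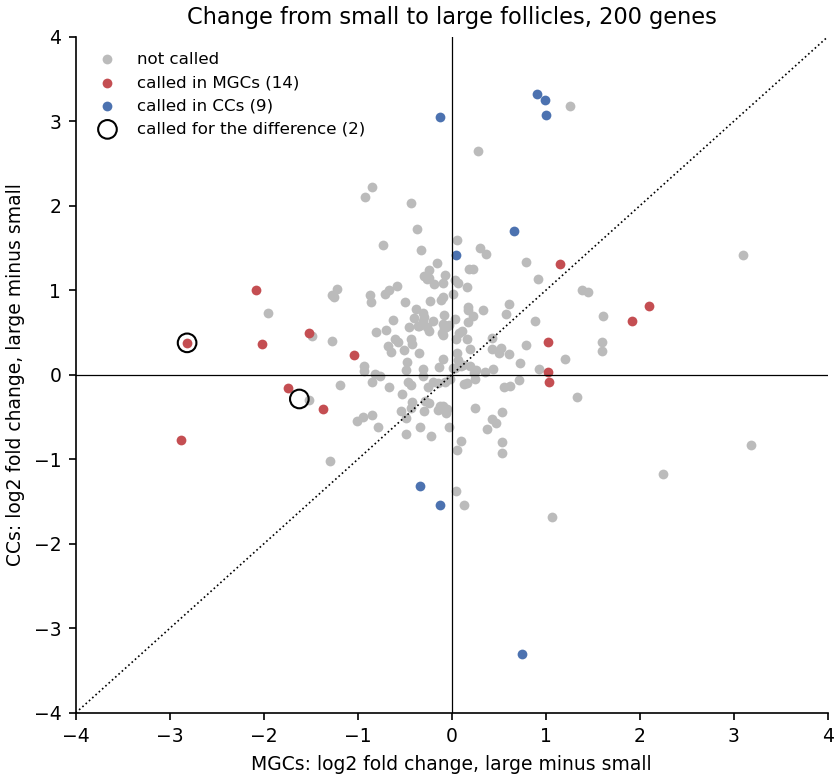
Log2 fold change from small to large follicles in MGCs (x) and in CCs (y) of the 200 genes, with the dotted line where both are equal. Red marks the 14 genes called in MGCs, blue the 9 called in CCs, none of which passed without CS50501 and CS71701, and circles the 2 called for the difference between the cell types. The red points are spread along x with CC values between -0.78 and 1.32, and more points lie above the dotted line than below it.

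Whether the change with stage differed between the compartments was tested as the CC change minus the MGC change, in one fit of the 52 somatic libraries with the follicle as a block. For the steps between small and medium and between medium and large follicles edgeR called no member, against 0.00665% and 0% of all 15043 genes, and 23 and 10 members had an unadjusted p under 0.05 with a fold above 2 (6.12% and 4.81% of all genes). DESeq2 called 4 and 0 members there, against 0.964% and 0.359% of all genes. Without the follicles of CS50501 and CS71701, 6 and 20 members had an unadjusted p under 0.05 with a fold above 2 by edgeR. The shares of all genes were then 3.50% and 6.02%. With all 26 follicles, 2 members were called from small to large, ranks 15 and 91, against 0.525% of all genes. An unadjusted p under 0.05 with a fold above 2 was found in 61 members, or 30.5%. The share was 13.8% of all genes and 16.1% of those at the members' level. Of the 61, 52 had a positive difference (10.1% of all genes). A positive difference can come from a rise in CCs, a fall in MGCs or both. The choice of members used the levels of these same libraries. These shares, and the median difference over the members, are therefore no independent result, as with the stage ratios above.

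Over all 200 members the median difference from small to large was 0.62 on the log2 scale, against 0.17 over all genes and 0.02 over the genes at the members' level, and 140 members were above 0. Without the follicles of CS50501 and CS71701 no member was called. The median was then 0.31, against 0.01 over all genes, with 123 members above 0, and 36 members had an unadjusted p under 0.05 with a fold above 2 (against 7.35% of all genes). Among the 10 healthy follicles the median was 0.14, against 0.01 over all genes, and 107 members were above 0. All small follicles among these 10 have numbers that begin with 620, which no medium or large one has. Stage and number prefix therefore cannot be told apart there. The direction of the median remained, and its size moved with the follicles used.

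Rank 91 had the largest difference, of 3.71 ± 0.75 (adjusted p = 0.0159 by edgeR). Its MGC levels ran from 13.5 through a median of 40.8 to 149 CPM in small, from 0.860 through 10.8 to 52.6 CPM in medium and from 0.232 through 4.93 to 15.5 CPM in large follicles. Its CC levels ran from 3.07 through 18.7 to 24.6 CPM in small, from 5.99 through 25.2 to 35.6 CPM in medium and from 12.6 through 24.3 to 32.5 CPM in large follicles. The MGC medians were lower at each step, while the CC medians of medium and large follicles were above that of small ones, so MGCs were above CCs in small follicles and below them in large ones. Without the follicles of CS50501 and CS71701 the difference was 3.26 (adjusted p = 0.0896).

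Rank 15 had a difference of 2.02 ± 0.48 (adjusted p = 0.0455). Its MGC levels ran from 40.8 through a median of 143 to 282 CPM in small, from 11.5 through 36.7 to 164 CPM in medium and from 5.08 through 12.7 to 275 CPM in large follicles. Its CC medians were 110, 107 and 83.9 CPM. The large MGC libraries were low except for GL72102, at 275 CPM, beside which the next had 95.0 CPM. Its MGC change alone was -1.62 ± 0.68 and did not pass (adjusted p = 0.178). Without the block the difference was 1.29 (adjusted p = 0.370), and without the follicles of CS50501 and CS71701 it was 1.67 (adjusted p = 0.220). The next member by p was rank 144, with a difference of 2.27 ± 0.59 (adjusted p = 0.0670). Its MGC medians were 17.6, 9.44 and 4.59 CPM and its CC medians 9.31, 10.98 and 12.3 CPM in small, medium and large follicles.

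**Figure D4:**
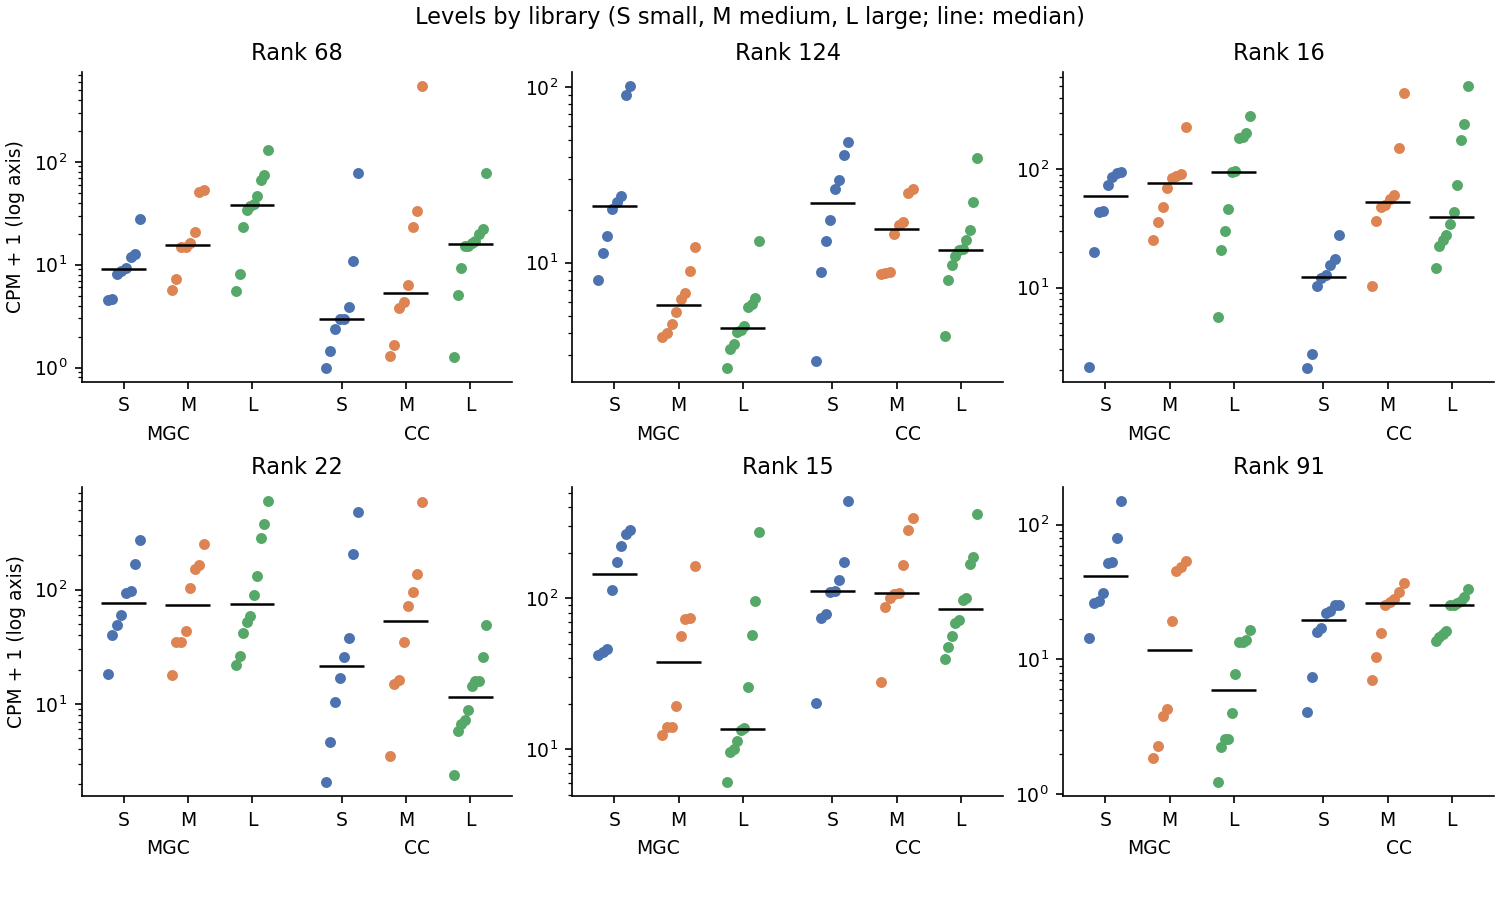
Levels of ranks 68, 124, 16, 22, 15 and 91 in each library (CPM with 1 added, y, logarithmic) by cell type and stage (S small, M medium, L large, with 8, 8 and 10 libraries), where lines are medians. The MGC medians of ranks 124, 15 and 91 are lower in large than in small follicles and the CC medians run from 20.9 to 10.9 CPM for rank 124, from 110 to 83.9 CPM for rank 15 and from 18.7 to 24.3 CPM for rank 91, and single high pools stand above the rest in the CCs of ranks 68, 16 and 22.

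Whether a follicle with more of a transcript in its MGCs also had more of it in its CCs was tested by Pearson's r over the 26 follicles, on log2(CPM + 1) with stage means subtracted and 100000 permutations within stage. This matching was not used to choose the members. Of the 14828 genes tested, 0.236% passed with a positive r after adjustment, and of the members 1 did, rank 155. A positive r with an unadjusted p under 0.05 was found in 19 members, or 9.50%, against 6.31% of all genes and 5.5% of those at the members' level, and a negative one in 2 members, against 3.77% of all genes. The median r was 0.07 over the members and 0.01 over all genes, and 119 members were above 0.

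Rank 155 had an r of 0.68 (permutation p = 1e-05, the smallest the resamples allow, adjusted p = 0.0135) and a Spearman rho of 0.60 (permutation p = 0.00092, adjusted p = 0.155). Without the 2 follicles farthest from the median in MGCs r was 0.63. Its levels in MGCs ran from 4.99 to 18.8 CPM in small, from 0 to 10.98 CPM in medium and from 0 to 19.2 CPM in large follicles, with medians of 12.8, 5.45 and 12.0 CPM. In CCs they ran from 1.22 to 14.04, from 1.22 to 63.1 and from 3.69 to 22.3 CPM, with medians of 10.5, 4.89 and 13.1 CPM. In GM72104 it was at 0 and in CM72104, the CC pool of the same follicle, at 1.22 CPM, the lowest medium value. The highest medium values were those of GM70502 and CM70502, again of 1 follicle.

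The next members by r were ranks 29 (0.66), 200 (0.61), 15 (0.61), 159 (0.50), 91 (0.49), 8 (0.49) and 31 (0.49), with adjusted p from 0.0930 to 0.386 by the permutation test. Without the follicles of CS50501 and CS71701, ranks 29 and 15 passed, with r of 0.80 and 0.75 (adjusted p = 0.0198 and 0.0296), and rank 155 did not (r = 0.67, adjusted p = 0.0689). With CPM scaled by edgeR's TMM factors all 3 passed. Among the 10 healthy follicles r was -0.32 for rank 29 and -0.83 for rank 15, the opposite direction. When the first 3 digits of the follicle number were subtracted as well, r was 0.76 for rank 155, 0.79 for rank 15 and 0.48 for rank 29, and no member passed. The lowest r were those of ranks 156, 163, 131, 161 and 104, from -0.49 to -0.41.

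**Figure D5:**
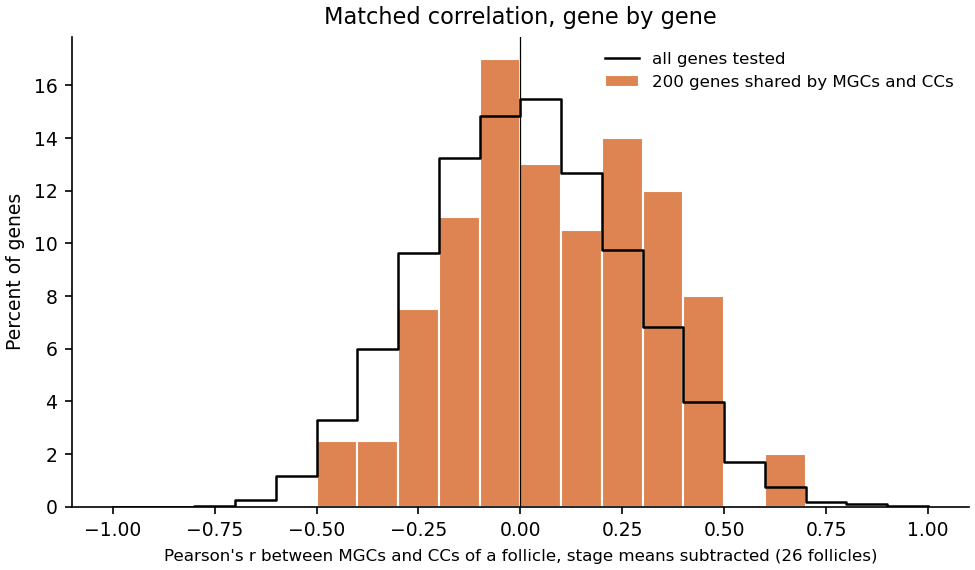
Share of genes (y, percent) by Pearson's r between the MGCs and the CCs of a follicle after subtraction of stage means (x, 26 follicles), with bars for the 200 genes and a line for all 14828 genes tested. Both lie around 0, with medians of 0.07 and 0.01, and 119 of the 200 genes are to the right of 0.

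The members varied widely between follicles of one stage. Their median within-stage SD of log2(CPM + 1) was 0.685 in MGCs and 0.985 in CCs, against 0.471 and 0.784 over all genes at their level. The choice used mean CPM over these same libraries, which a single high library can raise, so the larger SD is no independent result. The SD was larger in CCs in 162 members, or 81.0%, and in 81.3% of the genes at that level. Without the follicles of CS50501 and CS71701 the members' medians were 0.688 and 0.823, against 0.467 and 0.633, and the SD was larger in CCs in 135 members (67.5%, against 70.6%). The most variable members in MGCs were ranks 83, 23, 5, 21, 31 and 51, with SDs from 2.26 to 1.73, and the least variable were ranks 156, 24, 46, 189, 61 and 112, from 0.230 to 0.282. Rank 5 illustrates how unequal the compartments could be, with an SD of 2.02 in MGCs and 0.743 in CCs at means of 154 and 199 CPM.

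In CCs the most variable members were ranks 68, 94, 121, 22, 186 and 165, with SDs from 2.14 to 1.71, and the least variable were ranks 17, 147, 60, 18 and 46, from 0.456 to 0.496. The CC means of ranks 114 and 166 rested on 1 pool more than those of any other member. Rank 114 had 340 CPM in CM70502, beside CC medians of 2.62, 2.62 and 3.88 CPM and MGC medians of 12.7, 20.7 and 12.1 CPM in small, medium and large follicles. Rank 166 had 155 CPM in the same pool, beside CC medians of 1.67, 2.32 and 2.01 CPM and MGC medians of 8.85, 15.5 and 19.9 CPM. Without CM70502 the CC mean of each would lie under 6.40 CPM, the level of the lowest member. Ranks 114 and 166 are thus members through 1 library, and at every stage their medians were higher in MGCs. Rank 94 had 335 CPM in CM71704, where the next medium pool had 74.2 CPM and the CC medians were 2.12, 5.55 and 5.01 CPM. By contrast, rank 17 was steady in both compartments, with MGC medians of 86.6, 82.4 and 64.8 CPM, CC medians of 141, 157 and 112 CPM and within-stage SDs of 0.412 and 0.456. Rank 46 was steady as well, with SDs of 0.257 in MGCs and 0.496 in CCs and means of 38.0 and 45.1 CPM.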

How the data were processed

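The deposited values were whole-number counts per Ensembl gene, which the authors made with featureCounts over exons of ARS-UCD1.2 and did not normalize. The study's methods name STAR (unique alignments), whereas the submitters' processing notes name HISAT2 2.2.1, and which one made these counts was not settled. All 90 columns were read. Groups came from the sample titles.

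CPM was count over column total. Genes above 1 CPM in at least 15 of 26 libraries of a cell type entered (15056, all 200 members included), and each fit tested those of them that its own libraries counted, 14838 in MGCs, 15033 in CCs, 15043 for both and 14828 for correlations. Stage fits used edgeR 4.0.16 (TMM, glmQLFit, glmQLFTest) in R 4.3.3, over 3 stages in one fit per cell type, and DESeq2 1.42.0 as an alternative. Here edgeR was the main test, although the methods name DESeq2. The MGCs and CCs of a follicle were paired by the number in their titles, which marks the same follicle, and the fit of both cell types used it as a block. Correlations used Python 3.11.15, numpy 2.4.6 and scipy 1.17.1 with seed 1, and plots matplotlib 3.10.9. On simulated counts with 200 genes changed 4-fold between small and large follicles, 175 were recovered in MGCs, 157 in CCs and 79 for the difference between them, with 7, 6 and 0 other genes called.

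The genes and the rule for those described were chosen with earlier results of these data known. The rule took the 30 highest lower means, the largest changes among the DEGs or the 3 smallest p where there were none, the extremes of r and of SD, the genes at the edge of the choice and the 5 highest oocyte means. The planned gene lists, markers and promoter motifs need symbols and were not run. Ranks 71, 105, 138, 144 and 158 fall outside this rule and were chosen after their values were seen, as were the members given by library. At most 2 identifiers that rose and 2 that fell are given, those of the largest changes. Library depth, with amplified and not molecule-tagged CC and oocyte libraries, was at least 8442938 counts. The alternatives were DESeq2, its size factors in edgeR, other filters, the unadjusted p, the 10 follicles the study classed as healthy on MGC expression, all 30 follicles, the number prefix as covariate, no block, Spearman's rho, other pseudocounts and scalings and, added after the data were seen, leaving out the follicles of CS50501 and CS71701 and, in CCs, using the 29 follicles with a whole CC library.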

Additional observations from a re-analysis of the deposited data

Results flagged for a closer look

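Within 87 groups of 8 to 10 libraries, the highest library stood apart by Dixon's test in 24. Chance gives about 1 in 20 for normal values, but the members tested were chosen for large changes or single high libraries and CPM is skewed, so the number of such groups says nothing by itself. The value given is the gap to the next library as a share of the group's range. In small MGCs these were GS71701 for rank 68 (0.653), GS70501 for rank 144 (0.701) and GS50502 for rank 114 (0.793). In medium MGCs they were GM70502 for rank 16 (0.67) and GM71704 for rank 15 (0.595). In large MGCs they were GL62803 for the summed level of the 200 genes (0.493), GL71801 for rank 124 (0.651), GL72102 for rank 15 (0.667) and GL50505 for rank 144 (0.723).

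CC pools stood apart in 15 of these groups. In small follicles they were CS62005 for rank 68 (0.871), CS71701 for rank 22 (0.578) and CS70501 for rank 15 (0.636). In medium follicles CM70502 stood apart for ranks 68 (0.941), 16 (0.672), 155 (0.818), 114 (0.991) and 166 (0.973), and CM71704 for rank 22 (0.768). In large follicles CL72102 stood apart for ranks 124 (0.485), 15 (0.545) and 2 (0.533), CL62803 for rank 68 (0.725), CL72101 for rank 16 (0.533) and CL62802 for rank 22 (0.502). Pool CM70502 also had the highest summed level of the 200 genes (13086 CPM).

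Ranks 15 and 91 were marked because their change from small to large follicles differed between the cell types, by 2.02 and 3.71 on the log2 scale (CC change minus MGC change, edgeR with the follicle as a block). Neither passed without the follicles of CS50501 and CS71701.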

How the results depend on the processing

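Counts of members called are given in the order small to medium, medium to large and small to large, with the share of all genes called. In MGCs they were 1, 0 and 14 (0.283%, 0% and 3.13%), with DESeq2 4, 2 and 25 (1.52%, 0.425% and 5.12%), at an unadjusted p 17, 7 and 32 (5.57%, 4.43% and 8.7%), and among the 10 healthy follicles 7, 22 and 31 (1.66%, 7.96% and 8.74%). With the number prefix as a covariate 0 were called from small to medium (0.236%) and 24 from small to large (8.05%), of which 6 were among the 14. Without the follicles of CS50501 and CS71701 9 were called from small to large (2.08%), and without that of CS50501 alone 0 from small to medium (0.148%). In CCs they were 0, 0 and 9 (0%, 0% and 3.34%), with DESeq2 2, 1 and 27 (0.253%, 0.120% and 9.03%), and at an unadjusted p 21, 11 and 37 (9.1%, 4.48% and 15.7%). From small to large in CCs, 2 were called among the healthy follicles (0.0805%), 0 with the prefix (0.0399%), and 0 without either of those follicles or both (0%), although without both 1 was called from medium to large (0.0200%). With all 30 follicles 0 were called (0.0266%), a fit that includes the incomplete column CS70701, and with the other 29 follicles 9 (1.85%). For the difference between cell types they were 0, 0 and 2 with the follicle as a block (0.00665%, 0% and 0.525%), and without this pairing 0, 0 and 8 (0.0598%, 0.00665% and 2.55%). DESeq2 gave 4, 0 and 49 (0.964%, 0.359% and 8.90%), the unadjusted p 23, 10 and 61 (6.12%, 4.81% and 13.8%), the healthy follicles 1, 1 and 7 (0.0400%, 1.42% and 0.801%), and leaving out both follicles 0 from small to large (0.166%).

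For the matched correlation 1 member was called (0.236%), 3 with TMM-scaled CPM (0.250%), 2 without the follicles of CS50501 and CS71701 (0.263%), 19 at an unadjusted p (6.31%), and 0 with Spearman's rho (0.0877%), with the prefix subtracted (0.0540%) or among the healthy follicles (0%), whose 864 arrangements allow no adjusted call. Other alternatives moved no count by over 1.5 times. Of 261 values of called members under the alternatives, 172 kept their call, 88 lost it in the same direction and 1 reversed, the CC change of rank 22 among the healthy follicles (1.63). There r also reversed for ranks 29 (-0.32), 15 (-0.83), 163 (0.23), 131 (0.22), 161 (0.67) and 104 (0.58). The same choice on the healthy follicles, on medians or with an oocyte limit of 1 CPM shared 132, 108 and 127 of the 200 genes, and the other choices tried shared 164 to 189. Of the latter, those over 27 and over all 30 follicles, which shared 182 and 169, include the incomplete column CS70701. Apart from the incomplete column, the cause of these differences was not tested.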
